A study of Homo sapiens with 6 samples.

Results

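The major histocompatibility region lies on the short arm of chromosome 6, and the DEK peaks in it were taken as every peak of both DEK peak lists that overlapped chr6:29600000-33400000 (hg19). There were 24 such peaks, 3 of the 15017 peaks of replicate 1 and 21 of the 152779 peaks of replicate 2, out of 167796 in all. None of the 3 overlapped any of the 21, so the region held 0 of the 4453 intervals that both precipitations shared. DEK peaks were sparse in the region, while trimethylation of lysine 4 of histone H3 (H3K4me3), a mark of the starts of active and poised genes, was denser per Mb there than on the rest of chromosome 6. Protein-coding genes were denser too, at 42.4 against 5.07 per Mb, and 50.9% of them carried the mark near a start, against 57.1%. Peaks on alternative sequences of the region, described at the end, are not in the counts of the region. They are in the totals of the lists, and 6 of the 4453 shared intervals lay on them.

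The region is among the most gene-rich stretches of the human genome. Its class I part holds the HLA genes whose products show peptides from inside the cell to cytotoxic T cells, its class II part holds those that show peptides from outside the cell to helper T cells together with the genes that cut, transport and load peptides, and class III, between them, holds complement, tumor necrosis factor and many housekeeping genes. DEK is an abundant nuclear protein that binds DNA and histones and acts on chromatin structure and transcription, and monocytic cells are known to express class I genes and, to a varying degree, class II genes.

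The data were ChIP-seq of U937, an established human myeloid cell line of monocytic character that grows in suspension, with no treatment named in the labels. The labels give 2 precipitations with an antibody to DEK, 2 with an antibody to H3K4me3 and 2 samples of non-precipitated chromatin, and the 4 peak lists of the antibodies were compared. Peaks had been called in each precipitation alone, so that replicate 1 and replicate 2 are separate lists of unequal length. The peak lists do not give read totals, so the exact sequencing depth of each precipitation was not used here. The lowest score was 50 in both DEK lists. The false discovery rate given with the peaks was 100% for all 15017 replicate 1 peaks, the 3 of the region included, and 0.88% to 1.65% for the 21 of replicate 2. Neighbouring peaks are not replicates, and a two-sided exact permutation test of the 2 DEK against the 2 H3K4me3 precipitations cannot go below p = 0.333, so no test was run. Shares have 95% Wilson intervals and counts per Mb 95% exact Poisson intervals. Where a share is 0, the limit given instead is that of 3 counts of the total. All of these cover counting error only.

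The sequences below are 300-base windows around the middle of a peak (hg19, plus strand, 5′ to 3′) and are shown for the 2 replicate 1 peaks that lie in genes and for the replicate 2 peak at FLOT1, which holds the most motif matches of the region and overlaps H3K4me3. They were chosen after their values were seen. Capitals mark the letters of GAGGAA (core of PU.1 sites, the myeloid master factor), GGGCGG (SP1), CCAAT (NF-Y, a factor of class II promoters), CACGTG (USF1) and TGTGGT (RUNX1), searched on both strands, so that a run of capitals may read as the reverse complement.

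replicate 1, intron of PPP1R18, chr6:30650243-30650542: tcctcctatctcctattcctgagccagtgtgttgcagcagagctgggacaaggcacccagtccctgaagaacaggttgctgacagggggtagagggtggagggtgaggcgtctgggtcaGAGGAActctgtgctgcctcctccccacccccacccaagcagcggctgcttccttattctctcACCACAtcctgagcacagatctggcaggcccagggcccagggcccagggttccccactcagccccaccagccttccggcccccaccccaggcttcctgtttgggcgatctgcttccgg
replicate 1, at HCG20, chr6:30749558-30749857: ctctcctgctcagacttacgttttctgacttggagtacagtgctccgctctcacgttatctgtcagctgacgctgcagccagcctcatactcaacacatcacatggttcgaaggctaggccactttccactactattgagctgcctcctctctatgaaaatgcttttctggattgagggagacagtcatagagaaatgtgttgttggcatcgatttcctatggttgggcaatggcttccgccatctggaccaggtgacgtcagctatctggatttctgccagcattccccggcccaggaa
replicate 2, upstream of FLOT1, chr6:30710646-30710945: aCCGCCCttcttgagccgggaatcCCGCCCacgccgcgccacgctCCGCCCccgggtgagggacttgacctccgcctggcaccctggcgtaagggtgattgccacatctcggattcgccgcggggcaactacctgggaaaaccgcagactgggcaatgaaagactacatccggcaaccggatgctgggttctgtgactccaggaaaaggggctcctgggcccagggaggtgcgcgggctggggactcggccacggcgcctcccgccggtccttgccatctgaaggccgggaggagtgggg

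Among the 3 replicate 1 windows of this length, GAGGAA and TGTGGT each occurred in 1, the window in PPP1R18, and CCAAT in 1, the window upstream of HLA-K. Over all 14930 replicate 1 windows the shares were 31% for GAGGAA, 27.6% for TGTGGT and 28.2% for CCAAT. In replicate 2, GGGCGG was in 7 of the 21 windows (33.3%) against 21.9% of all 152337, with 3 copies in the window upstream of FLOT1. CCAAT was in 4 of 21 (19%) against 19.6%, GAGGAA in 2 of 21 (9.52%) against 15% and TGTGGT in 2 of 21 (9.52%) against 20.5%. CACGTG was in 0 of 3 and 0 of 21 windows, against 4.74% and 4.92% of all, and 0 of 21 allows a share of up to 14.3%. GGGCGG was in 0 of the 3 replicate 1 windows, against 11.1% of all. These matches are descriptions of letters.

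To see how sparse DEK peaks were, their number per Mb was compared with the rest of chromosome 6, leaving out 26 to 28 Mb. Replicate 1 had 0.789 peaks per Mb in the region (0.163 to 2.31) and 6.29 in the rest, a ratio of 0.126 (0.0259 to 0.367). Replicate 2 had 5.53 per Mb (3.42 to 8.45) against 49.3, a ratio of 0.112 (0.0694 to 0.171). These ratios depend on which peaks are counted. They rose to 1.00 and 0.448 when peaks on alternative versions of the region (described at the end) were added over the same length. That sum can count a site once for every version. The replicate 2 ratio fell to 0.0578 for scores of at least 100 and to 0 for its 15017 highest scores, as replicate 1 did to 0 for scores of at least 100. Only 1 window of 0.5 Mb in the rest reached 36 coding starts per Mb, the median of the region's windows. Against it the ratio was 0.132 in replicate 1 and 0.0321 in replicate 2. Shared intervals stood at 0 in the region, which allows up to 0.971 per Mb, against 1.68 per Mb in the rest, where there were 271. H3K4me3 went the other way, with 30.3 peaks per Mb against 17.3 in replicate 1 (ratio 1.75, 1.44 to 2.10) and 27.1 against 10.2 in replicate 2 (ratio 2.66, 2.17 to 3.23). Adding the alternative versions raised its counts as well, from 115 to 852 in replicate 1 and from 103 to 715 in replicate 2.

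**Figure D1:**
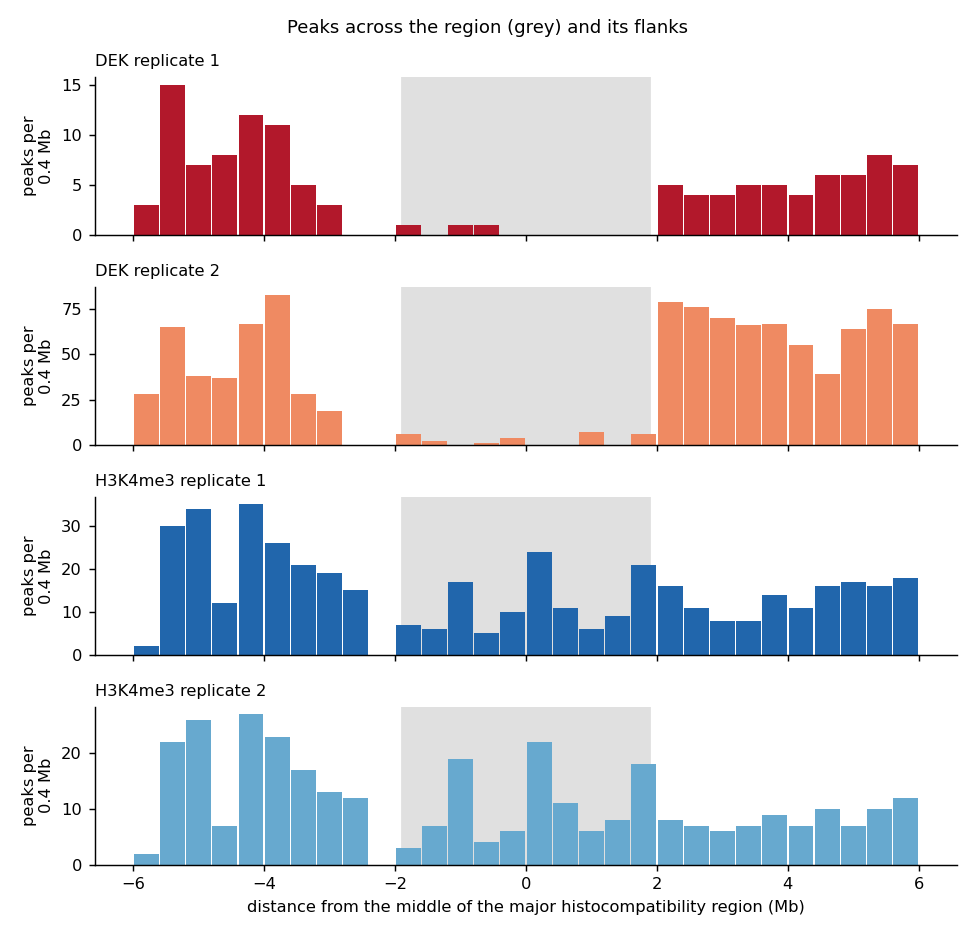
Number of peaks in windows of 0.4 Mb (vertical axis) by distance in Mb from the middle of the major histocompatibility region (horizontal axis), 1 panel per peak list, with the region in grey. In both DEK panels the bars drop to near 0 inside the grey area and in the windows just before it, while the H3K4me3 bars continue through it.

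The low counts began before the region and ended close to its far side. Replicate 2 had 106 peaks from 2 to 1 Mb before the region, 5 in the last Mb before it, 8 in the first Mb inside, 8 in the last Mb inside and 176 in the first Mb after it. Replicate 1 had 18, 0, 1, 0 and 9 in the same stretches. The last replicate 2 peak before the region lay 916 kb from its edge and the first one after it only 21.8 kb away. H3K4me3 of both replicates was also lower just before the region, with 17 shared intervals in that Mb against 43 in the Mb before.

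Long stretches of the region had no peak. The median gap between neighbouring replicate 2 peaks on chromosome 6 was 8.29 kb, and after the gap of 3194 kb over the centromere the 5 longest on the chromosome all lay in or touched the region, at 1131, 1046, 802, 663 and 634 kb. The next one, elsewhere, was 424 kb. The 1046 kb gap ran from the last peak at MICB through the whole of class III to the HLA-DR genes. In replicate 1 the gap from HCG20 to beyond the end of the region was 2910 kb, the second longest of the chromosome after the centromere, against a median of 64 kb.

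Other windows of the same length put these counts in place. Among the 41 other windows on chromosome 6, none held as few DEK peaks, the lowest being 4 in replicate 1 and 85 in replicate 2. Among 708 windows over all chromosomes, 79 held 3 or fewer replicate 1 peaks, so that a count this low was not rare in that list, and 9 held 21 or fewer replicate 2 peaks. Of these 708, the 10 windows with at least as many shared H3K4me3 intervals as the region (107) held 10 to 61 replicate 1 peaks and 260 to 1131 replicate 2 peaks. The region's 3 and 21 lay below both ranges.

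Class I, from the start of the region to midway between MICB and MCCD1, held all 3 replicate 1 peaks and 13 of the 21 replicate 2 peaks. This was 1.59 per Mb (0.328 to 4.64) and 6.89 per Mb (3.67 to 11.8). Class II held 0 and 8 peaks, with the latter at 6.80 per Mb (2.94 to 13.4). Class III held 0 peaks in both lists, which allows up to 5.01 per Mb, against 6.29 and 49.3 per Mb in the rest of the chromosome. Class III was also where H3K4me3 was densest, with 34 shared intervals or 46.2 per Mb (32 to 64.5), against 21.2 in class I, 28.1 in class II and 9.62 in the rest. Protein-coding genes were densest there too, at 92.4 per Mb, against 27, 35.7 and 5.07 in the same order. The share of protein-coding genes with shared H3K4me3 within 1 kb of a TSS was 50% in class III, against 54%, 48.8% and 57.1%. Class I and class II differed in replicate 2 by less than their counting intervals.

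**Figure D2:**
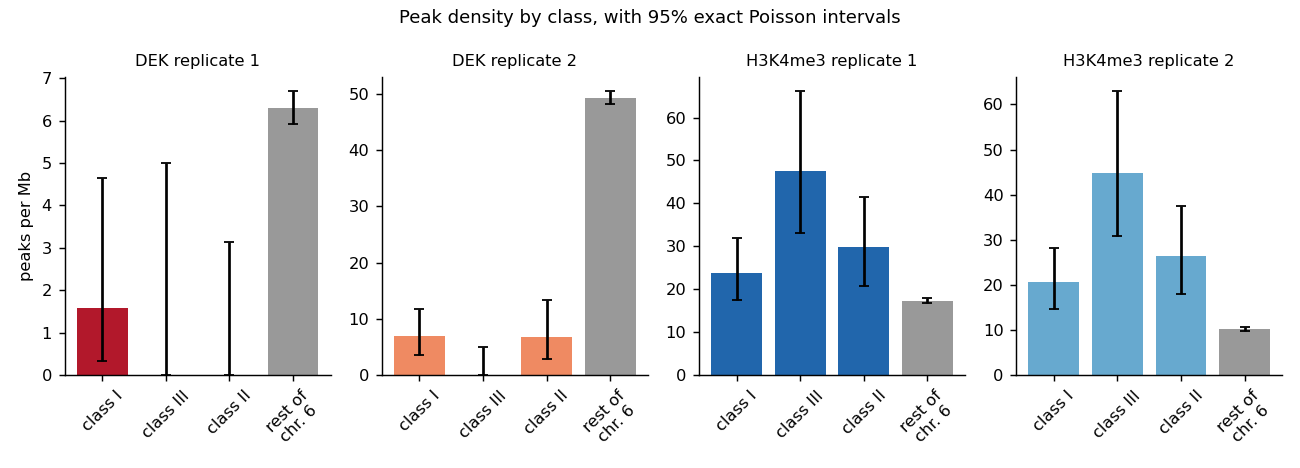
Peaks per Mb (vertical axis) in class I, class III, class II and the rest of chromosome 6 (grey bars), 1 panel per peak list, with 95% exact Poisson intervals as error bars. DEK bars are below the grey bar in all 3 classes and at 0 in class III, and H3K4me3 bars are above it.

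The first of the 3 replicate 1 peaks had 25 tags, a score of 52.1 and 5.86-fold enrichment over local background. The score is the caller's p-value on a negative log10 scale, multiplied by 10. It was intergenic, 3938 bp upstream of the pseudogene HLA-K. The peak at chr6:30649971-30650816 had 36 tags, a score of 94.2 and a fold of 7.81. It lay in an intron of PPP1R18, which encodes phostensin, a protein that targets protein phosphatase 1 to actin, and was the only replicate 1 peak of the 3 that overlapped H3K4me3 in both replicates. The peak at chr6:30749330-30750087 had 32 tags, a score of 84.4 and a fold of 7.03, and lay in an exon of the long non-coding RNA HCG20, 27 bp upstream of one of its annotated transcription start sites (TSSs). All 3 had fewer tags than the median of 41.5 in the rest of chromosome 6. In score 2 of them were above its median of 66, and in fold all 3 were above its median of 5.57.

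The closest approach of the lists was 9252 bp, between the peak upstream of HLA-K and a replicate 2 peak at chr6:29899917-29900494. On the rest of chromosome 6, 25.3% of replicate 1 peaks (257 of 1016) met a replicate 2 peak. Over the whole list, alternative sequences included, 27.4% did. The 0 of 3 in the region sets no limit below 100%. In the other direction 0 of 21 replicate 2 peaks met one of replicate 1, which allows up to 14.3%. The share was 3.39% in the rest and 2.90% over the whole list. With 3 and 21 peaks, the absence of shared intervals cannot be told apart from the shares seen elsewhere.

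The replicate 2 peaks of class I fell mostly into a pair of places. Within 93.1 kb on the far side of HLA-G lay 8 of them, together with the replicate 1 peak upstream of HLA-K. This stretch is full of class I pseudogenes. The highest score of the region was here, at a peak with 23 tags, score 124 and a fold of 8.19, in an intron of an unnamed long non-coding RNA (ENSG00000290870). The peak at chr6:29869884-29870411 matched it in tags (23), at score 97.8 and a fold of 4.22. None of these 8 overlapped H3K4me3, and 3 of them held a stretch of 100 bases that occurs again in the primary assembly.

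At MICB, whose product is a stress-induced ligand of the NKG2D receptor on natural killer cells, 3 replicate 2 peaks lay within 4.39 kb. The peak at chr6:31462246-31462850 had 13 tags and a score of 70.9, and its middle was 110 bp upstream of a TSS. That at chr6:31463815-31464409, in an intron, had 13 tags and a score of 70.9, and the one at chr6:31466091-31466640, also intronic and 443 bp downstream of a further TSS, had 16 tags and a score of 98.0. The former pair overlapped H3K4me3 of both replicates and the last did not. The remaining class I peaks were at chr6:30710542-30711051, in an exon of IER3-AS1 and 287 bp upstream of FLOT1, with 12 tags, a score of 69.4 and H3K4me3 of both replicates, and at the pseudogene FGFR3P1 near HLA-B, with 14 tags, a score of 57.8 and no H3K4me3.

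In class II, 7 of the 8 replicate 2 peaks lay within 91.7 kb from HLA-DRB5 to HLA-DQA1, in the part of the region where the number of HLA-DRB genes differs between people. The peak at chr6:32513119-32513503, 15247 bp upstream of HLA-DRB5, had 15 tags and a score of 110. HLA-DQA1, the alpha chain of the HLA-DQ peptide receptor, had 1 peak upstream at chr6:32593689-32594139 with 13 tags and a score of 92.5, and 2 in introns. Of these, chr6:32597221-32598086 had 20 tags and a score of 104, and the other had 12 tags and a score of 73.3 and lay 567 bp upstream of a TSS inside the gene. No H3K4me3 shared by both replicates was closer than 18236 bp to a TSS of HLA-DQA1. The other 3 were at HLA-DRB6, between HLA-DRB6 and HLA-DRB1, and 15497 bp upstream of HLA-DRB1, with 13 tags each and scores of 58.4 to 87.2.

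The eighth class II peak, chr6:33267488-33268013, had 12 tags and a score of 67.4 and overlapped H3K4me3 of both replicates. It lay at the end of TAPBP, which encodes tapasin, the chaperone that loads class I molecules, and 1031 bp upstream of RGL2. Its middle was 4557 bp from the nearest TSS of TAPBP.

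As a group the 21 replicate 2 peaks were at the low end in tags. Their median score was close to that of the rest, but high scores were fewer. They had 12 to 23 tags with a median of 13, against a median of 19 in the rest of chromosome 6, and 18 of the 21 were below that median. Their scores ran from 57.8 to 124 with a median of 73.3, against 77.3, and 8 of the 21 were above it. The upper quartile of their scores was 92.5, against 104 in the rest. The median fold enrichment was 5.44 against 4.63, and the median width 573 bp against 668 bp. Of the 21, 3 had a score of at least 100, while the upper quartile over all replicate 2 peaks was 107. None was among the 15017 highest scores of the 152779 replicate 2 peaks, and 0 of 21 allows a share of up to 14.3%.

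**Figure D3:**
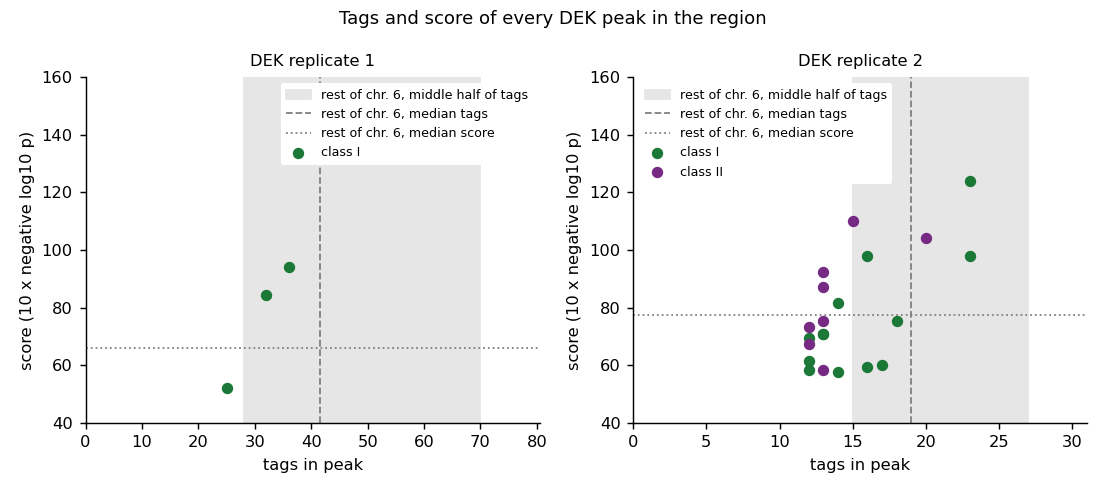
Score (vertical axis, negative log10 p multiplied by 10) against tags (horizontal axis) for each of the 3 replicate 1 peaks and 21 replicate 2 peaks of the region, coloured by class, where peaks with equal values lie on top of each other. Grey bands span the middle 50% of tags in the rest of chromosome 6, dashed lines its median tags and dotted lines its median score. All 3 and 18 of 21 points are left of the dashed lines.

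Distances to TSSs were measured from the middle of each peak. Of the replicate 2 peaks, 9 of 21 were within 1 kb of a TSS (42.9%, 24.5% to 63.5%), against 12% in the rest of the chromosome. For TSSs of protein-coding genes alone it was 4 of 21 (19%, 7.67% to 40%) against 7.93%, a value that lies inside this interval. Protein-coding genes were at 42.4 per Mb in the region and 5.07 per Mb in the rest, and how much of either share follows from this was not tested. Of the replicate 1 peaks 1 of 3 was within 1 kb of a TSS, against 13.5%. The nearest TSS was that of a pseudogene for 9 of the 21 and that of a protein-coding gene for 7, and 10 of the 21 were intergenic.

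H3K4me3 of both replicates overlapped 1 of the 3 replicate 1 peaks (33.3%, 6.15% to 79.2%) and 4 of the 21 replicate 2 peaks (19%, 7.67% to 40%), against 33.8% and 7.04% in the rest of the chromosome. Seen from the side of the mark, the shares lay further apart. Of the 107 H3K4me3 intervals shared by both replicates in the region, 1 met a replicate 1 peak (0.935%, 0.165% to 5.10%) and 4 met a replicate 2 peak (3.74%, 1.46% to 9.22%). In the rest of chromosome 6, 22.4% and 29.6% of 1555 did. The counts of the region are limited by its 3 and 21 DEK peaks, so these shares restate how sparse the peaks were. In class III it was 0 of 34 in both, as it had to be with no DEK peak there.

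Peaks were also compared for repeated sequence and base composition. A stretch of 100 bases that occurs again in the primary assembly was in 0 of 3 replicate 1 peaks and 4 of 21 replicate 2 peaks (19%), against 9.84% and 20.9% in the rest of chromosome 6. The alternative versions of the region (described at the end) are not part of the primary assembly. Copies on them were therefore not counted, and these shares do not show how often the region's sequence recurs in the whole build. The median GC content was 48.8% and 54.1% in the region, against 44.2% and 47.4%.

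Genes were then counted as having DEK where the middle of a peak was within 1 kb of one of their TSSs. Over all 64449 genes 4.38% had a replicate 1 peak, 32.3% a replicate 2 peak, 2.14% a shared DEK interval and 24.6% a shared H3K4me3 interval. Of the 352 genes of the region, 1 had a replicate 1 peak (0.284%, 0.0502% to 1.59%), the non-coding HCG20. For replicate 2 it was 10 (2.84%, 1.55% to 5.15%), and for shared intervals 0, which allows up to 0.852%. The shared H3K4me3 count was 117 (33.2%, 28.5% to 38.3%), above the value over all genes. The DEK shares of the region were thus below those over all genes in each list, and the share with the mark was not.

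The 10 genes with a replicate 2 peak were 3 protein-coding genes (FLOT1, MICB and HLA-DQA1), 4 long non-coding RNAs (IER3-AS1, HCG20, MICB-DT and ENSG00000289100), the pseudogenes MCCD1P1 and FGFR3P1, and a Y RNA copy inside MICB. They shared peaks, since neighbours such as FLOT1, IER3-AS1 and HCG20 start close together. HCG20 was counted in both lists, through different peaks at different TSSs. Of the 161 protein-coding genes, 3 had a replicate 2 peak (1.86%, 0.636% to 5.33%) against 57.2% of 820 in the rest, and 0 had a replicate 1 peak, which allows up to 1.86%, against 11.2%.

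The comparison was repeated among genes that carried the mark. H3K4me3 of both replicates was within 1 kb of a TSS of 82 of the 161 protein-coding genes (50.9%), against 57.1% in the rest. Of these 82, 2 had a replicate 2 peak (2.44%, 0.671% to 8.46%), FLOT1 and MICB, against 72.9% of the 468 marked genes in the rest. For replicate 1 it was 0 of 82, which allows up to 3.66%, against 17.7%. The median distance from a protein-coding gene of the region to the nearest DEK peak was 765 kb in replicate 1 and 183 kb in replicate 2, against 32.9 kb and 0.629 kb in the rest. To the nearest shared H3K4me3 interval it was 0.903 kb against 0.584 kb.

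By role, the 63 genes of 7 lists gave 0 with a replicate 1 peak, 3 with a replicate 2 peak and 38 with H3K4me3 of both replicates. Of the 8 class I and class I-like genes, MICB alone had a replicate 2 peak, and 6 had H3K4me3. HLA-B and HLA-C were 10699 bp and 105636 bp from a replicate 2 peak, and HLA-E 253507 bp. HLA-C, HLA-E and HLA-F had H3K4me3 334, 695 and 159 bp from a TSS. HLA-B and HLA-G had none within 1 kb.

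Of the 9 class II presenting genes, HLA-DQA1 alone had a replicate 2 peak, and 2 had H3K4me3, HLA-DRB1 and HLA-DRB5, whose TSSs were 13065 bp and 15247 bp from the nearest replicate 2 peak. HLA-DRA, the shared alpha chain of HLA-DR, was 105647 bp away. None of the 9 genes of peptide processing and loading had a DEK peak, while 5 had H3K4me3. These 5 were TAP1, a subunit of the peptide transporter, the immunoproteasome subunits PSMB8 and PSMB9, TAPBP and HLA-DMA, a chain of the class II peptide exchanger. TAP1 was 211396 bp from the nearest replicate 2 peak.

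Neither list had a DEK peak in class III. The 7 genes of the TNF block, the 6 of the complement and steroid block and the 3 HSP70 genes thus had none. H3K4me3 of both replicates was at 3 genes of the TNF block, LST1, AIF1 and NFKBIL1, and at 1 of each of the other groups, the complement gene C2 and the heat shock gene HSPA1B. The cytokine genes TNF, LTA and LTB were not among them, at 11134, 14582 and 4354 bp from the mark.

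In the list of RNA, chromatin and housekeeping genes, 20 of 21 members had H3K4me3 of both replicates, IER3 being the exception at 1073 bp, and 1 had a replicate 2 peak, FLOT1, which encodes the membrane scaffold protein flotillin. Genes of general function with H3K4me3 at their start and no replicate 2 peak nearby were the ribosomal protein gene RPS18, 24107 bp from the nearest one, the tubulin gene TUBB at 21320 bp, the RNA helicase gene DDX39B at 32347 bp, the bromodomain gene BRD2 at 320291 bp and EHMT2, a histone H3 lysine 9 methyltransferase, at 386218 bp. With a replicate 1 peak there was none, the nearest being DHX16 at 9610 bp.

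**Figure D4:**
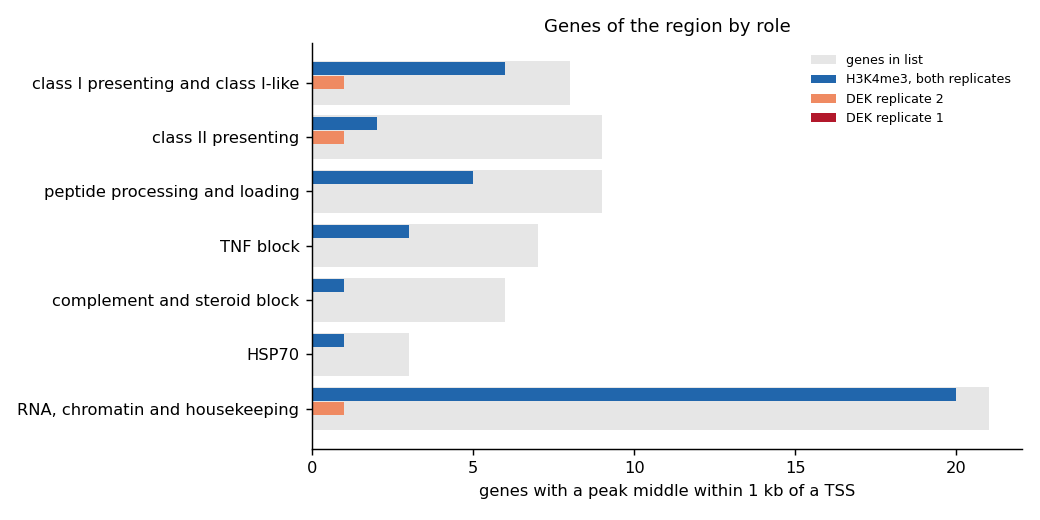
Number of genes in each of 7 lists (grey bars) and how many of them had the middle of a peak within 1 kb of a TSS (horizontal axis, genes), for H3K4me3 of both replicates, DEK replicate 2 and DEK replicate 1. The DEK replicate 2 bars stand at 1 in 3 lists and at 0 in the other 4, DEK replicate 1 has no bar, and H3K4me3 reaches 20 of 21 in the list of RNA, chromatin and housekeeping genes.

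The hg19 build also holds 7 alternative sequences of this region, the contigs APD, COX, DBB, MANN, MCF, QBL and SSTO, each a version carried by another human cell line, and the deposited lists had peaks on all of them. Replicate 1 had 21 peaks there, 7 times its 3 on chromosome 6, and replicate 2 had 63, 3 times its 21. H3K4me3 had 737 and 612, or 6.41 and 5.94 times its counts on chromosome 6. The DEK peaks of the contigs included 6 shared intervals, in 5 of the 7 contigs, against 0 on chromosome 6. Per contig there were 1 to 6 replicate 1 peaks and 3 to 14 replicate 2 peaks. When the peaks of the contigs were added to the region's own and set against its length on chromosome 6, the ratio to the rest rose from 0.126 to 1.00 in replicate 1 and from 0.112 to 0.448 in replicate 2, and this sum counts a site once for every sequence on which it was called.

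The pair of replicate 1 peaks at PPP1R18 and HCG20 started 99359 bp apart on chromosome 6. On 3 contigs (DBB, MANN and QBL) there was a pair of replicate 1 peaks 99362 to 99534 bp apart, among 29 pairs looked at with a tolerance of 1000 bp, with 30 to 63 tags per peak. The sequences of the contigs were not used here, so their peaks were not placed on chromosome 6, and whether reads of the region were divided among the 8 versions was not tested.

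**Figure D5:**
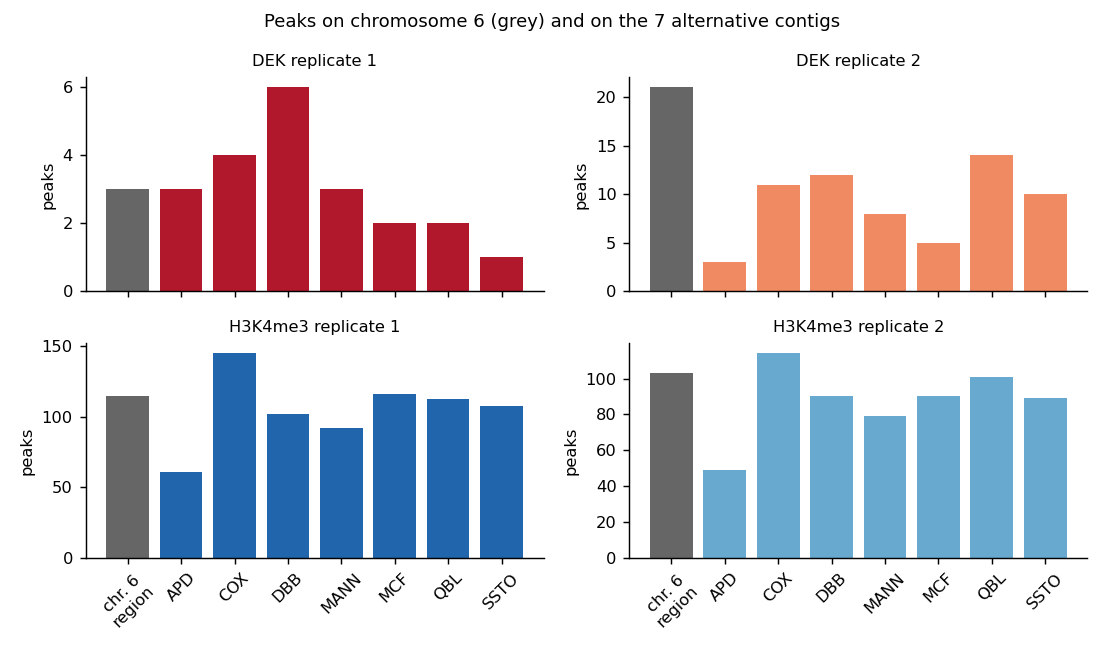
Peaks (vertical axis) in the major histocompatibility region of chromosome 6 (grey bars) and on each of the 7 alternative contigs (coloured bars), 1 panel per peak list. DEK replicate 1 has 1 to 6 peaks on every sequence, replicate 2 has its highest bar on chromosome 6, at 21, and H3K4me3 bars on most contigs are near the height of the grey bar.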

How the data were processed

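The labels name DEK, H3K4me3 and non-precipitated samples of U937. Per the submitters' processing notes and the paper's methods, the authors mapped reads to hg19 (Bowtie 2) and ran MACS 1.4.1 on every precipitation by itself. The deposited DEK lists give positions and, for every peak, a raw count of tags. The score that the authors deposited is a p-value as −log10, multiplied by 10, the deposited fold enrichment is a ratio over the local background, and false discovery rates were deposited in percent. The H3K4me3 lists were used for positions only, and the non-precipitated samples were not used.

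Peaks were shared where they overlapped by at least 1 bp, which bedtools 2.31.1 also gave for the DEK lists (4453 intervals). Genes and TSSs came from GENCODE release 44 mapped to GRCh37, and sequences from GRCh37. Classes were split midway between MICB and MCCD1 and between NOTCH4 and TSBP1. Densities used length without assembly gaps. Intervals of ratios cover the region's count alone. Each stretch of 100 bases of the chromosome 6 DEK peaks was counted on both strands of the primary assembly. Motif windows ran 150 bases before the middle and were compared with all peaks on chromosomes 1 to 22, X and Y.

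Tables and intervals were computed with SciPy 1.17.1, pandas 2.3.3 and NumPy 2.4.6 in Python 3.11.15, stretches with Numba 0.67.0 and figures with Matplotlib 3.10.9, and 12 of 12 checks passed on simulated data. The genes named were to be those with a shared interval, of which there were none, and those of the 7 lists, and other genes are named as neighbours of peaks and were chosen after their values were seen. Some sequences and 1 gene of these lists, though kept in the counts, are not reported here. The members and lists were chosen with earlier results of these data known. Alternatives were lists of equal length, a stricter score, a larger overlap, each replicate alone, other boundaries and TSSs and another background.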

Additional observations from a re-analysis of the deposited data

Results flagged for a closer look

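The peaks on the alternative chromosome 6 contigs lie outside the region by which the members were chosen, and both DEK lists had some. Replicate 1 had 21 peaks on the 7 contigs, with 26 to 140 tags and a median of 45, and replicate 2 had 63, with 12 to 70 tags and a median of 14. Both counts are above 3.69, the upper exact Poisson limit of a count of 0. This decides nothing, since the contigs are versions of a region that holds peaks and a site may be counted on several of them. There is no control list to set beside the counts.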

How the results depend on the processing

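The 0 shared intervals in the region and in each class, the 0 share, the 0 ratio and the 0 genes were recomputed with both replicates kept under an overlap covering 50% or more of both peaks, a score of at least 100, lists of equal length, and, where they apply, 26 to 28 Mb kept, gene-dense windows, a boundary of 2 kb and outermost TSSs, and gave 0. Most of these could give nothing else, since a stricter overlap, score or list length cannot raise a count of 0 and another background cannot change a ratio of 0, so they say nothing about stability. With either replicate left out, so that all peaks of the other counted, the range was 3 to 21 for the region, 3 to 13 for class I, 0 to 8 for class II and 1 to 10 for genes, and class III stayed at 0. No paired analysis was possible because the results come from no test. With a score of at least 100 no replicate 1 peak was left in the region, so its overlap with replicate 2 has no value there. The shares of shared intervals near a TSS or with H3K4me3 have no value, since there was no shared interval, and were replaced by those of each replicate.

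The following were chosen after seeing the data. The replicate 1 ratio of 0.126 became 0 at a score of at least 100 and 1.00 with the contigs added. Against gene-dense windows of the rest it was 0.132. The replicate 2 ratio of 0.112 became 0.0578 at that score, 0 for lists of equal length, 0.0321 against gene-dense windows of the rest (only 1 window of 0.5 Mb, with 172 peaks per Mb) and 0.448 with the contigs added. With protein-coding TSSs only, the share of peaks within 1 kb fell from 33.3% to 0% in replicate 1 and from 42.9% to 19% in replicate 2. With few peaks (3 and 21), shares within the region are imprecise.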
